A study of Mastomys natalensis with 4 samples.

Results

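Activator protein 1 (AP-1) is a pair of basic leucine zipper (bZIP) proteins, usually a Jun partner with a Fos or ATF partner, that binds DNA as a dimer. Jun proteins can pair with each other, whereas Fos proteins need a Jun partner to bind DNA well. EGR1 is a zinc finger factor of another family, and like Fos its gene is switched on within minutes of growth factor or hormone signals that pass through MAP kinases to serum response factor and its ELK partners. Gastrin, the hormone that drives the enterochromaffin-like (ECL) cells of the stomach, is known to induce such immediate early genes in gastric epithelial cells.

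The members are the 9 mouse genes Fos, Fosb, Fosl1, Fosl2, Jun, Junb, Jund, Atf3 and Egr1, taken by name from the array's annotation, out of 8251 genes that it names by a single symbol. They are read by 14 probe sets, none of which carries a second symbol. The arrays were mouse U74 expression arrays from Affymetrix, and the RNA was total RNA from stomach mucosa of the rodent Mastomys natalensis, a species that readily develops ECL cell tumours. There were 2 samples after 16 weeks of loxtidine (loxitidine in the labels), at a stage labelled neoplasia of ECL cells. They were set against 2 samples after 8 weeks, at a stage labelled hyperplasia. Loxtidine blocks the histamine H2 receptor and so lowers acid secretion, and all 4 samples come from treated mucosa. Untreated mucosa was not analysed here, time and stage changed together, and the labels give neither age nor sex nor whether the samples of a group were separate animals. A p-value here therefore speaks of the scatter among these 4 samples alone, and that scatter may be technical.

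None of the members passed the test between 16 and 8 weeks. limma called 0 of their 10 tested probe sets, and 0 of the 7883 probe sets tested in all (0% called), at a Benjamini-Hochberg adjusted p under 0.05. At an unadjusted limma p under 0.05 there were 0 of the 10 member probe sets, against 1100 of all tested probe sets (14.0%, of which 8.08% higher and 5.87% lower). That member count changed with the processing. It was 1 after quantile normalization, and 1 of 8 with a higher floor for dim values. With the arrays on a common median or on the hybridisation controls it was 2. Over all tested probe sets the count changed as well. It was 1079 after quantile normalization, 838 with the higher floor, 1328 on a common median and 2514 on the controls. The number of probe sets tested in each of these settings is not given here. The members did not share a direction: 5 tested probe sets were higher at 16 weeks and 5 were lower, with a median log2 difference of -0.0093 against 0.086 over all tested probe sets. The differences ran from -0.57 for the brighter Fos probe set to 0.56 for Fosb, and for both of these the 16-week and 8-week values did not overlap.

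A value is an intensity on the scale in which the authors deposited it. Each difference is a log2 difference, 16 weeks minus 8 weeks, given with limma's moderated standard error (SE, n = 2 samples in each group). That error borrows from the variance of all tested probe sets. It is therefore not the scatter of a probe set's own samples alone. Intensities under a floor of 12.15 were raised to it before the logarithm, and a probe set was tested if 2 or more of the 4 arrays exceeded the floor. Of the 14 member probe sets 10 were tested, which covers 7 of the 9 genes. Another 3 lay below the floor on all arrays and 1 lay above it on a single array. A dim mouse probe set does not show that the Mastomys transcript was missing, since mismatches between the species lower its signal.

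**Figure D1:**
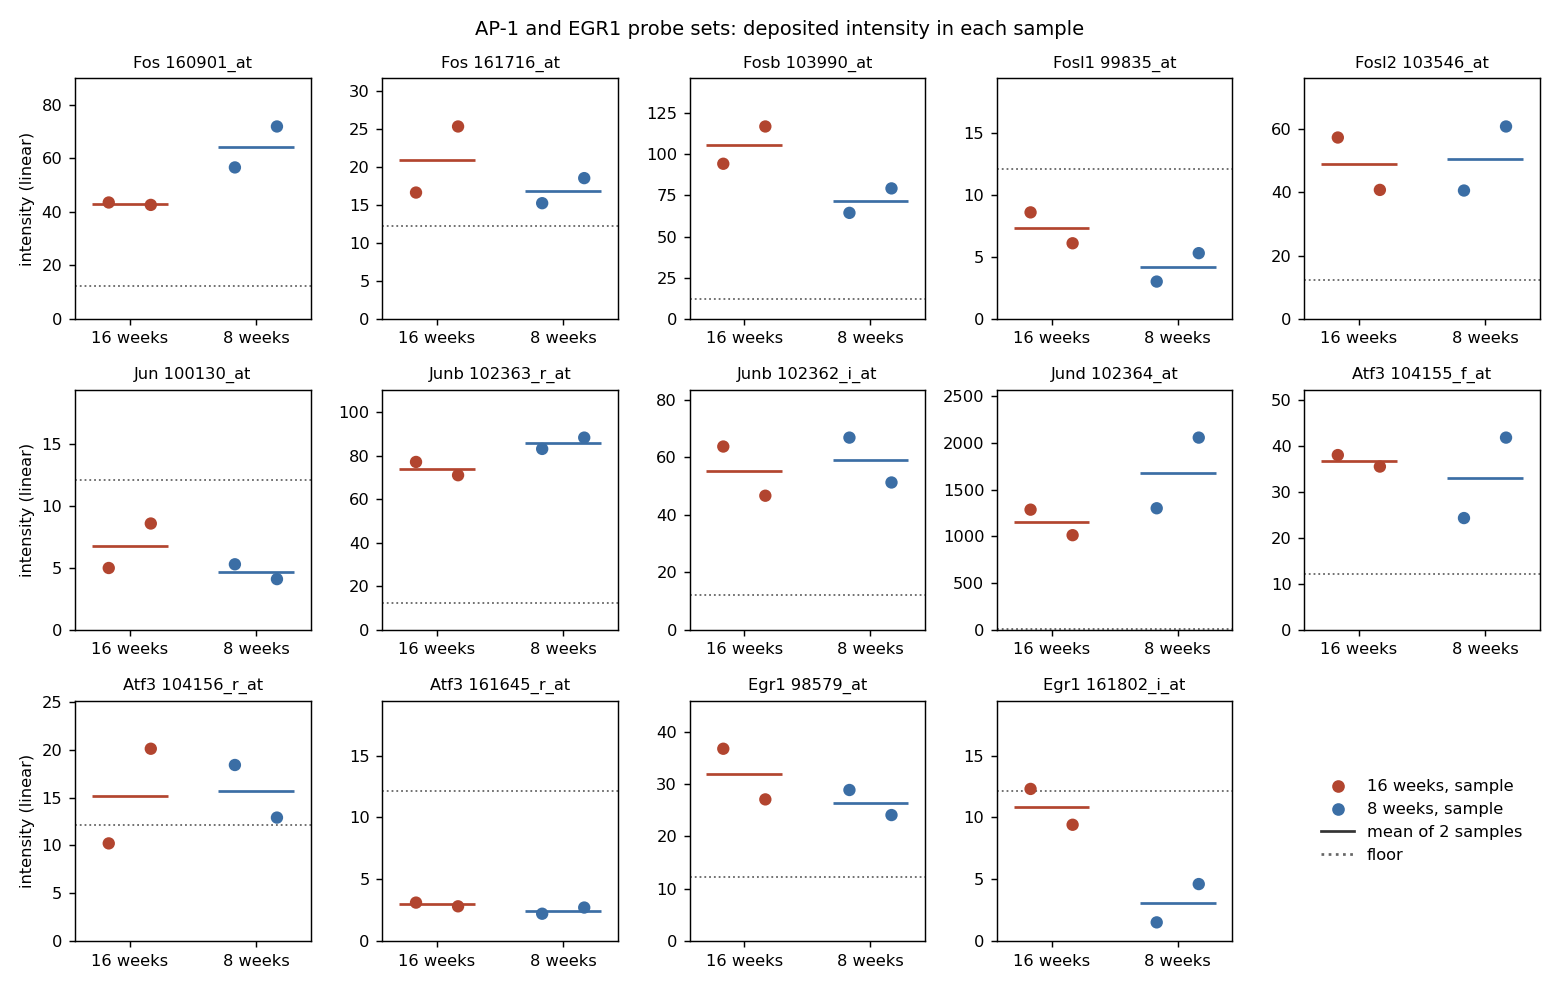
Deposited intensity (linear axis from 0, scaled separately in each panel) of the 14 member probe sets in the 16-week samples (left, red) and the 8-week samples (right, blue), sample 1 before sample 2 within a group, with the mean of each group as a bar and the floor of 12.15 as a dotted line. Fosb lies higher in both 16-week samples and the brighter Fos probe set lower, while Jun, Fosl1 and the dimmest Atf3 probe set lie under the floor throughout.

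Among the Fos partners with a tested probe set, Fosb gave the brightest signal and was the only one whose 16-week values all lay above its 8-week values. Fosb encodes FosB, a Fos protein with strong activating domains. It read 94.3 and 117 in the 16-week samples, against 64.4 and 79.3 in the 8-week samples. Both 16-week values lay above both 8-week values. The difference was 0.56 ± 0.27 (SE), or 1.47-fold, with a 95% interval of -0.13 to 1.24 and a limma adjusted p of 0.403. The gaps between the samples of a group were 0.31 log2 units at 16 weeks and 0.30 at 8 weeks, so the difference exceeded both.

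The brighter probe set of Fos (160901_at), the founding member of the family, read 43.4 and 42.5 in the 16-week samples, against 56.5 and 71.8 in the 8-week samples. The groups did not overlap, and the difference was -0.57 ± 0.25, which is 1.48-fold lower. Its 95% interval ran from -1.22 to 0.08 and the limma adjusted p was 0.389, the smallest of any member. The second Fos probe set (161716_at) did not share that direction. It read 16.6 and 25.3 in the 16-week samples, against 15.2 and 18.5 in the 8-week samples, with overlapping groups and a difference of 0.29 ± 0.31 (limma adjusted p = 0.673). That probe set lay closer to the floor. Fos therefore has no single direction in these data.

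Fosl2 encodes Fra-2, a Fos-related protein that lacks the strong activating domain of Fos. It read 57.4 and 40.8 in the 16-week samples, against 40.6 and 60.9 in the 8-week samples. The groups overlapped almost fully, and the gaps within them, 0.49 and -0.59 (sample 1 minus sample 2, 16 weeks then 8 weeks), were many times the difference of -0.039 ± 0.33 (95% interval -0.89 to 0.81, limma adjusted p = 0.964). Fosl1, which encodes Fra-1, read 8.6 and 6.1 in the 16-week samples, against 3 and 5.3 in the 8-week samples, under the floor on every array, and so was not measured.

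Among the Jun partners, Jund gave by far the brightest signal and Jun itself lay under the floor. JunD is the Jun protein with steady expression in resting cells, and it is bound by menin, the product of the tumour suppressor gene behind multiple endocrine neoplasia. Jund read 1285 and 1012 in the 16-week samples, against 1300 and 2056 in the 8-week samples. It ranked first among the tested member probe sets on all 4 arrays and lay at the 99.7th percentile of brightness of all probe sets on average, a statement about signal and not about transcript number. The groups did not overlap, but 16-week sample 1 and 8-week sample 1 were nearly equal. The difference of -0.52 ± 0.33 (95% interval -1.36 to 0.32, limma adjusted p = 0.498) was smaller than the gap of 0.66 between the 8-week samples. Without 8-week sample 2 it was -0.19, and without 8-week sample 1 it was -0.85. After quantile normalization it shrank to -0.13 (limma adjusted p = 0.886).

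Junb encodes JunB, which is induced with Fos and often restrains the activity of c-Jun. Its first probe set (102363_r_at) read 77.2 and 71.1 in the 16-week samples, against 83.2 and 88.4 in the 8-week samples, without overlap. That difference of -0.21 ± 0.23 was larger than the gaps within the groups, 0.12 at 16 weeks and 0.087 at 8 weeks, but did not pass (limma adjusted p = 0.683). The second probe set (102362_i_at) read 63.7 and 46.6 in the 16-week samples, against 66.8 and 51.2 in the 8-week samples, with overlapping groups and a difference of -0.10 ± 0.30 (95% interval -0.86 to 0.65). The annotation ties both to the same mouse sequence, so they are readings of a single target and not independent. Jun, the gene of c-Jun, read 5 and 8.6 in the 16-week samples, against 5.3 and 4.1 in the 8-week samples, below the floor on every array, and was not measured.

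Atf3 encodes a stress-induced bZIP protein that pairs with Jun proteins and can repress transcription. The brightest of its 3 probe sets (104155_f_at) read 38 and 35.5 in the 16-week samples, against 24.3 and 41.8 in the 8-week samples. The 8-week samples bracketed the 16-week samples, and the difference was 0.20 ± 0.34 (95% interval -0.66 to 1.07, limma adjusted p = 0.788). The second (104156_r_at) read 10.2 and 20.1 in the 16-week samples, against 18.4 and 12.9 in the 8-week samples, with a difference of 0.021 ± 0.36 (95% interval -0.90 to 0.94), for which 16-week sample 1 was raised to the floor. In each group these probe sets put different samples on top. The third (161645_r_at) stayed between 2.2 and 3.1 on the 4 arrays and was not measured.

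Egr1 read 36.8 and 27.1 in the 16-week samples, against 28.9 and 24.1 in the 8-week samples on its brighter probe set. The groups overlapped, and the difference was 0.26 ± 0.28 (95% interval -0.46 to 0.98, limma adjusted p = 0.674). A second probe set (161802_i_at) read 12.3 and 9.4 in the 16-week samples, against 1.5 and 4.6 in the 8-week samples. It passed the floor in 16-week sample 1 only and was not tested. At this brightness its values measure neither a fold nor a direction.

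**Figure D2:**
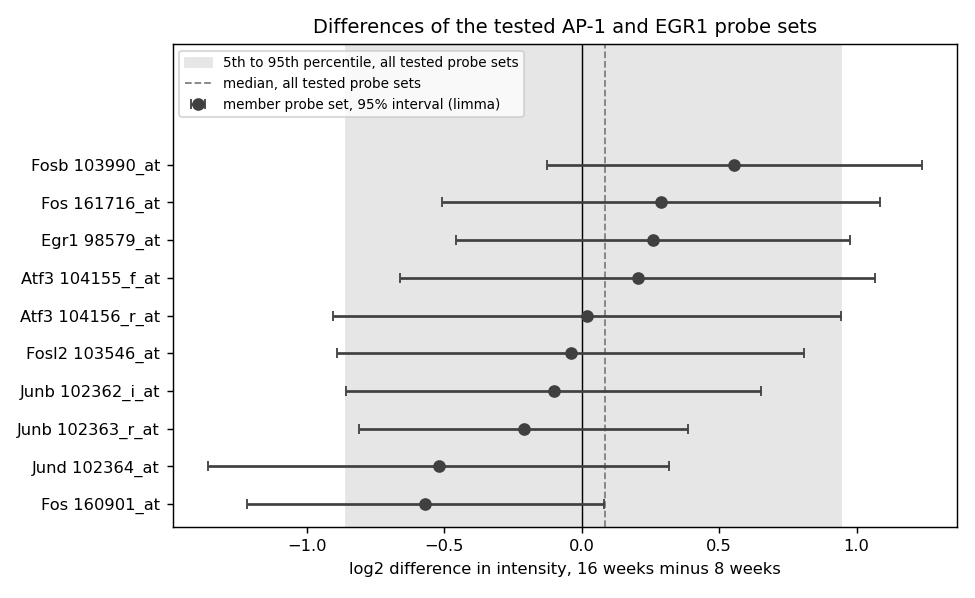
Log2 difference in intensity, 16 weeks minus 8 weeks, of the 10 tested member probe sets (points) with limma's 95% interval (bars), from n = 2 samples per group. The grey band spans the 5th to the 95th percentile of all 7883 tested probe sets (-0.86 to 0.94) and the dashed line is their median (0.086); every member lies inside the band and every interval includes 0.

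Across the tested members the moderated standard errors ran from 0.23 to 0.36 log2 units. The widest 95% bounds were -1.36 (2.56-fold lower, Jund) and 1.24 (2.36-fold higher, Fosb), and within those bounds the data do not settle whether a probe set changed. Of the 10 probe sets 4 had groups that did not overlap, 1 higher (Fosb) and 3 lower (Fos 160901_at, Junb 102363_r_at and Jund), where 28.7% and 20.6% of all tested probe sets did so (49.3% in either direction). In 3 of the 10 the difference exceeded both gaps within the groups, against 34.2% of all tested probe sets. Both shares lie near those of the array as a whole. By array, 8-week sample 2 held the highest value of 5 of the 10 probe sets and 16-week sample 1 that of 1, where over all tested probe sets these arrays were highest in 27.2% and 28.3%. The lowest value lay in 16-week sample 2 and in 8-week sample 1 for 4 probe sets each, where 25.6% and 43.2% of all tested probe sets had theirs.

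The scale of the arrays bears on every sign given above. The 9 bacterial hybridisation controls had a median difference of -0.57, while the median over tested probe sets was 0.086. With the arrays aligned on these controls that median became 0.54 and 9 of the 10 member probe sets were higher at 16 weeks. With the arrays on a common median it was -0.11 and 3 of 10 were higher. Fosb, at 1.08 and 0.33 in these settings, and the brighter Fos probe set, at -0.040 and -0.79, kept their signs, whereas Jund turned from negative to 0.0084 on the controls. No member passed under any setting run. The smallest limma adjusted p of a member was 0.119, that of Fosb with the arrays on the controls.

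Ratios between probe sets of the same array do not depend on a factor common to that array. The ratio of Fosb to Fos 160901_at was 2.17 and 2.75 in the 16-week samples, against 1.14 and 1.10 in the 8-week samples, a 2.18-fold difference. To the second Fos probe set the Fosb ratio was 5.68 and 4.62 in the 16-week samples, against 4.24 and 4.29 in the 8-week samples, a 1.20-fold difference in the same direction. The ratio of Fosb to Jund was 0.0734 and 0.116 in the 16-week samples, against 0.0495 and 0.0386 in the 8-week samples (2.11-fold). To Junb it was 1.22 and 1.65 in the 16-week samples, against 0.774 and 0.897 in the 8-week samples (1.70-fold). These ratios were chosen after the values were seen and carry no test. Among all 21 pairs of the 7 measured genes, by their brightest probe sets, the ratios of the groups did not overlap in 13, where 47.9% of all pairs of tested genes did so. Fos had 5 such pairs of its 6, Fosb, Junb and Jund had 4 each and Fosl2, Atf3 and Egr1 had 3 each, so Fosb does not stand apart in this count. Pairs share genes and are not independent. For Fosb over Atf3 and over Egr1 the groups overlapped.

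**Figure D3:**
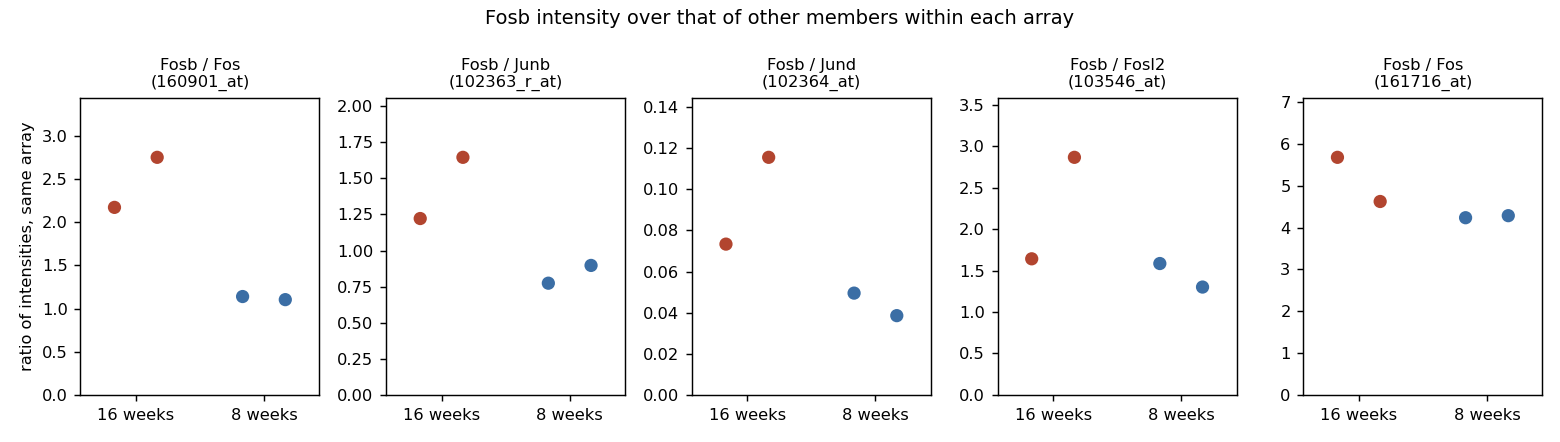
Intensity of Fosb over that of Fos (2 probe sets), Junb, Jund and Fosl2 on the same array (linear axes from 0), in the 16-week samples (red, left) and the 8-week samples (blue, right). Both 16-week samples lie above both 8-week samples in each panel; the height of a ratio has no meaning by itself, since probe sets differ in brightness.

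The probe sets whose course over the 4 samples was nearest to a member's were found by the root mean square difference of log2 values centred on their mean over n = 4 samples. For Fosb these were Smyd5 (0.0192), Larp7 (0.0245) and Clic3 (0.0254). Smyd5 read 18.9 and 23 in the 16-week samples, against 12.9 and 15.4 in the 8-week samples. For the brighter Fos probe set they were Ipo11 (0.0214), Faah (0.0225) and Tor1aip2 (0.0230), of which Ipo11, an importin, read 48.2 and 45.3 in the 16-week samples, against 61.1 and 78.3 in the 8-week samples. Tor1aip2 read 11.7 and 4.2 in the 16-week samples, both under the floor. It reached the filter through its 8-week values alone, so its match carries no weight. For Fosl2 they were Lifr (0.0177), the receptor of leukaemia inhibitory factor, Chordc1 (0.0233) and Grwd1 (0.0241). For Junb 102363_r_at they were a probe set annotated to Mir686 (0.0150), Tamm41 (0.0159) and the deubiquitinase gene Usp8 (0.0171). Those of Jund were Uso1 (0.0320), a Golgi tethering factor, Adarb1 (0.0358), an RNA-editing enzyme, and Ebna1bp2 (0.0384). Those of Atf3 104155_f_at were Dcaf1 (0.0275), Olfr71 (0.0383) and Mfsd1 (0.0385). The nearest to Egr1 were Ddx50 (0.0480), an RNA helicase, Traf6 (0.0533), a signalling adaptor, and Meox1 (0.0558). No member was among the 3 nearest of another member. Values under the floor were raised to it before these distances were taken. Lifr (5.4) and Usp8 (11.9) lay under it in 16-week sample 2. Grwd1 did so in 16-week sample 2 (10.2) and 8-week sample 1 (10.7). Their matches rest in part on the floor.

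The other immediate early genes did not pass either. Of 33 such genes on the array 28 were tested, with 11 higher and 17 lower at 16 weeks, a median of -0.13 against 0.071 over all tested genes, and 0 called (0% called). At an unadjusted limma p under 0.05 there were 1 higher (Ier2) and 2 lower (Id2 and Klf10), where 7.54% and 5.82% of all tested genes were. Klf10 reached the filter through its 8-week values alone, so its place in that count carries no weight. Ier2, a nuclear immediate early protein, read 30.9 and 18.7 in the 16-week samples, against 13.9 and 11.5 in the 8-week samples (0.89 ± 0.33, limma adjusted p = 0.349), with 8-week sample 2 under the floor. Id2, an inhibitor of basic helix-loop-helix factors, read 296 and 246 in the 16-week samples, against 444 and 441 in the 8-week samples (-0.71 ± 0.24, limma adjusted p = 0.340). These groups did not overlap for either gene.

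Klf10, a TGF-beta-inducible zinc finger factor, read 11.9 and 5.8 in the 16-week samples, both under the floor, against 32.1 and 23.4 in the 8-week samples. With these dim values raised to the floor, the Klf10 difference was -1.17 ± 0.27 (95% interval -1.865 to -0.482, limma adjusted p = 0.309). This probe set reached the filter through its 8-week values alone. The second Klf10 probe set read 12.8 and 15.7 in the 16-week samples, against 8.6 and 8.9 in the 8-week samples, the latter both under the floor. It reached the filter through its 16-week values alone, so neither Klf10 direction carries weight. Rgs2, a regulator of G protein signalling, read 11.5 and 11.2 in the 16-week samples, both under the floor, against 14.1 and 17.5 in the 8-week samples. With the dim values raised to the floor the difference was -0.37 ± 0.25 (95% interval -1.01 to 0.27). Rgs2 reached the filter through its 8-week values alone, so its direction carries no weight. The RNA-binding protein gene Zfp36l1 gave -0.34 ± 0.25 and Id3, a relative of Id2, 0.41 ± 0.32. Egr2, the EGR family member beside Egr1, read 12.9 and 54.9 in the 16-week samples, against 13.6 and 18.9 in the 8-week samples, so a single sample set its mean. Egr2 was named after its values were seen. Klf2, Dusp6, Ccn1, Ccn2 and Ptgs2 did not reach the filter.

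Of the other bZIP factors 20 of 25 on the array were tested, with 11 higher, 9 lower, a median of 0.058 and 0 genes at an unadjusted limma p under 0.05. Crem, a cAMP-responsive factor, read 22.6 and 23.9 in the 16-week samples, against 16.9 and 13.6 in the 8-week samples (0.62 ± 0.25, limma adjusted p = 0.364). Cebpb, a C/EBP factor of inflammation and differentiation, read 32.3 and 24.1 in the 16-week samples, against 52.7 and 38.4 in the 8-week samples (-0.69 ± 0.30, limma adjusted p = 0.383). Batf3, a Jun partner of dendritic cells, gave 0.61 ± 0.32 and the large Maf factor Maf 0.63 ± 0.59, with Maf under the floor in 8-week sample 2 (11.3). Nrl, a Maf-family factor known from photoreceptors, read 15.5 and 20.8 in the 16-week samples, against 8.5 and 11.4 in the 8-week samples, both under the floor. With the dim values raised to the floor the difference was 0.56 ± 0.265 (95% interval -0.11 to 1.24). Nrl reached the filter through its 16-week values alone, so its direction carries no weight. Atf2, a partner of c-Jun, gave -0.36 ± 0.24, with 65.2 and 57.8 in the 16-week samples, against 74 and 83.8 in the 8-week samples.

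Of the kinases and cofactors that act on AP-1 and EGR1, 16 of 19 on the array were tested, with 6 higher, 10 lower and a median of -0.046. A single gene (higher) had an unadjusted limma p under 0.05, where 13.4% of all tested genes did (7.54% higher), so the list holds no more such genes than the array as a whole. This was Elk1, the serum response factor partner that MAP kinases phosphorylate at the Fos and Egr1 promoters. It read 42.1 and 45.8 in the 16-week samples, against 18.9 and 22 in the 8-week samples, 2.15-fold higher (1.11 ± 0.24, 95% interval 0.49 to 1.73, limma adjusted p = 0.309), without overlap and above both gaps within the groups. Map2k2, the MAP kinase kinase MEK2, read 77.6 and 103 in the 16-week samples, against 59.4 and 57.2 in the 8-week samples (0.62 ± 0.26). Elk3, a related factor, gave 0.42 ± 0.25 and the EGR corepressor Nab1 0.69 ± 0.43, while the kinase subunit Csnk2a1 gave -0.47 ± 0.26 (0.099 on its second brightest probe set). Elk3 lay under the floor in 8-week sample 1 (7.7).

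Crebbp, a coactivator, gave -1.22 ± 0.71, where 16-week sample 2 read 10.6 and the other samples 48.3 to 69.6. Men1, the gene of menin, read 7.4 and 8.9 in the 16-week samples, against 10.1 and 12.8 in the 8-week samples, with only 8-week sample 2 above the floor, and was not tested. The EGR corepressor Nab2 was too dim as well.

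Of known AP-1 and EGR1 target genes 17 of 31 on the array were tested, with 9 higher, 8 lower, a median of 0.029 and 0 called. The matrix metalloproteinases Mmp3, Mmp9, Mmp10 and Mmp13, classical AP-1 targets, did not reach the filter. At an unadjusted limma p under 0.05 were 1 gene higher and 1 lower, a share near the 13.4% of all tested genes (7.54% higher and 5.82% lower). Hmox1, the haem-degrading stress enzyme, read 177 and 197 in the 16-week samples, against 105 and 129 in the 8-week samples (0.69 ± 0.25, limma adjusted p = 0.349). Vcl, which encodes vinculin of cell adhesions, read 263 and 213 in the 16-week samples, against 402 and 426 in the 8-week samples (-0.81 ± 0.25, limma adjusted p = 0.326). The growth factors Pdgfb and Vegfa gave 0.78 ± 0.46 and 0.55 ± 0.37, the squamous envelope gene Sprr1a 0.95 ± 0.61 and the metallothionein Mt1 -0.39 ± 0.24. Pdgfb read 30.3 and 34.1 in the 16-week samples, against 28.9 and 8.9 in the 8-week samples, the last under the floor. Sprr1a lay under the floor in 8-week sample 1 (11.6). Of the 24 genes named from these 4 lists by p, 0 changed sign after quantile normalization or on a common median, while 5 did on the hybridisation controls (Rgs2, Zfp36l1, Atf2, Csnk2a1 and Mt1). Elk1 stood at 0.96, 0.88 and 1.63 in these settings.

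**Figure D4:**
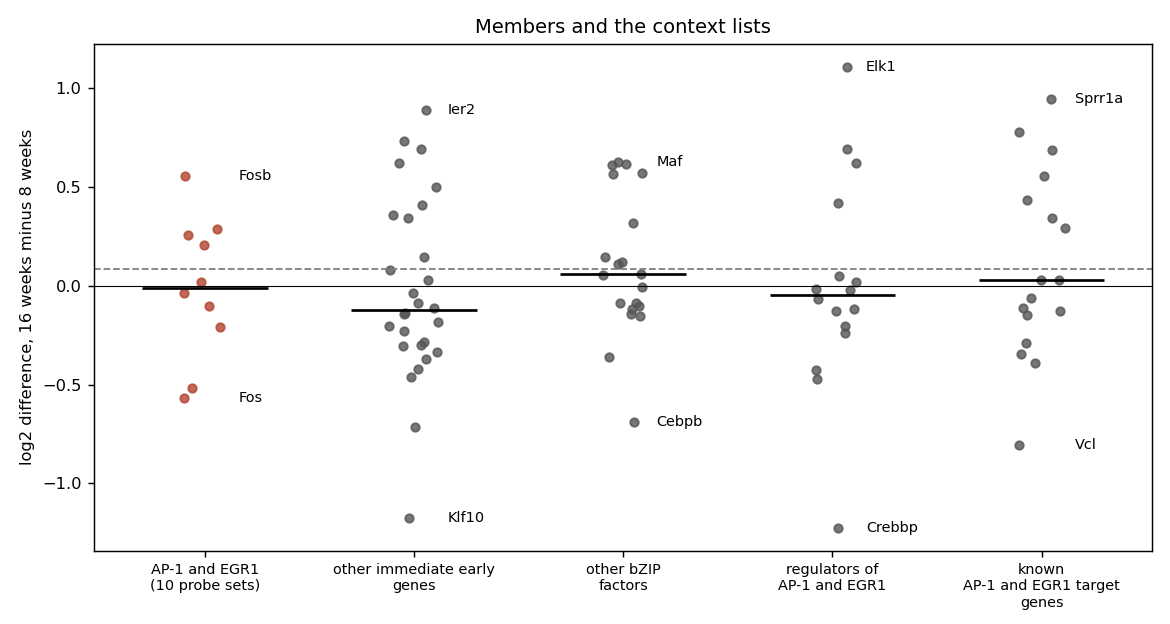
Log2 difference, 16 weeks minus 8 weeks, of the 10 tested member probe sets (red) and of the tested genes of the 4 lists around them (grey, a gene by its brightest probe set), with the median of each as a black bar, the lowest and highest gene named and the median of all tested probe sets (0.086) as a dashed line. Each list spreads to both sides of 0, from Crebbp at -1.22 to Elk1 at 1.11.

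Parietal cell genes, which define the acid-secreting mucosa, were measured, with all 6 on the array tested and Atp4a at 4850 and 4034 in the 16-week samples, against 4442 and 5304 in the 8-week samples. Of 8 ECL and endocrine markers 6 were tested, while Hdc and Syp were too dim. Of these 4 were higher and 2 lower, with a median log2 difference of 0.50. Their summed intensity was 665 and 625 in the 16-week samples, against 464 and 552 in the 8-week samples. The groups of Chga, Chgb and Ddc overlapped. Gast, the gene of gastrin itself, which antral G cells make, read 2.7 and 26.8 in the 16-week samples, against 889 and 182 in the 8-week samples, with 16-week sample 1 under the floor (limma adjusted p = 0.301). Markers of some other cells differed between samples. The summed intensity of 7 macrophage, neutrophil and mast cell markers was 286 and 295 in the 16-week samples, against 280 and 317 in the 8-week samples. For 6 endothelial markers (4 higher and 2 lower) it was 174 and 164, against 149 and 159, with Vwf too dim. Of these 6, Tek reached the filter through its 16-week values alone, and the groups of Cdh5 and Eng overlapped. The summed intensity of 8 fibroblast markers (4 higher and 4 lower) was 2395 and 2279 in the 16-week samples, against 3595 and 3140 in the 8-week samples. Col3a1 alone read 586 and 509 in the 16-week samples, against 1949 and 1280 in the 8-week samples. The median log2 difference of the fibroblast list was -0.070. The summed intensity of 7 smooth muscle markers (6 lower) was 1747 and 1677 in the 16-week samples, against 3332 and 2864 in the 8-week samples, and Acta2 was too dim. That of 5 pancreatic acinar markers (4 higher) was 2401 and 6776 in the 16-week samples, against 3830 and 1200 in the 8-week samples. That of 4 intestinal markers (all lower) was 116 and 118 in the 16-week samples, against 1081 and 194 in the 8-week samples, with Fabp2, Cdx1 and Cdx2 too dim. Of these 4, Vil1 reached the filter through its 8-week values alone, and the groups of Akp3 overlapped. The summed intensity of 5 squamous markers was 230 and 941 in the 16-week samples, against 408 and 358 in the 8-week samples, with Krt5, Krt14 and Ivl too dim. All 6 tested T and B cell markers were higher in mean log2 intensity, at 235 and 269 summed, against 168 and 200 at 8 weeks, with Cd3g and Cd8a too dim. Of these 6, Cd3d reached the filter through its 16-week values alone, and the groups of Cd3e and Cd79b overlapped. The 3′ over 5′ ratio of the mouse beta-actin controls, commonly used for RNA integrity, was 1.46 and 1.63 in the 16-week samples, against 1.26 and 1.16 in the 8-week samples. For Gapdh it was 0.891 and 0.647 in the 16-week samples, against 0.714 and 0.589 in the 8-week samples. Mismatches between the species can also bear on such ratios, so they do not measure RNA integrity alone. The part of any of these in the values of Fosb, Fos and Jund was not tested, and in whole mucosa fewer cells of a type and less RNA per cell cannot be told apart.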

How the data were processed

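The table holds the authors' deposited intensity for each of 12488 probe sets in 4 samples, on a linear scale. The sources used here do not give how intensities were computed or scaled. The labels name an own lot for each sample and no other batch. The median intensity was 19.2 and 18.9 in the 16-week samples and 15.4 and 17.3 in the 8-week samples. Of 12422 probe sets other than controls, the platform annotation, which can be old, gives 10833 a single symbol, 396 several (not named) and 1193 none. No sequence or coordinates were used.

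The floor was the median over arrays of the 40th percentile. limma 3.58.1 in R 4.3.3 (lmFit, eBayes, 2-sided) was fitted over all 7883 tested probe sets, with Benjamini-Hochberg adjustment over them. An exact permutation test of 2 against 2 samples cannot go below p = 0.333. A gene in a list stood by its brightest tested probe set. The scripts were tested on simulated data. The members and lists were chosen with earlier results of these data known. The text names all member probe sets, up to 6 genes of each of 4 lists with the smallest p and the 3 nearest patterns of each member; Egr2, Men1, Nab2, genes under the filter and cell markers were named besides. Alternatives covered the scaling, the floor (20th and 60th percentiles), a pseudocount of 16, no filter, a replicate block and each sample left out. The number of arrays limits the precision. The replicate numbers carry no meaning in the labels.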

Additional observations from a re-analysis of the deposited data

How the results depend on the processing

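No member passed in any of the 12 alternatives, and over all probe sets limma called 0 in each except without the filter on dim probe sets, which gave 22, none of them a member; the cause was not tested. Fosb, Fos 160901_at and Egr1 kept their signs throughout, at 0.33 to 1.08, -0.79 to -0.040 and 0.036 to 0.79. On the hybridisation controls Fosl2 turned to 0.49, the Junb probe sets to 0.43 and 0.32 and Jund to 0.0084. On a common median the Atf3 probe sets turned to -0.018 and -0.16, the second also to -0.18 after quantile normalization, -0.11 with the lower floor and -0.036 with the pseudocount. With a sample left out the range was -0.19 to 0.60 for Atf3 104155_f_at, -0.34 to 0.38 for 104156_r_at, -0.015 to 0.59 for Fos 161716_at, -0.33 to 0.25 for Fosl2 and -0.33 to 0.12 for Junb 102362_i_at. Alignment alone shifts all genes, and the list medians moved with it. The immediate early median was -0.17 after quantile normalization, -0.36 on a common median, 0.40 on the controls, -0.089 with the lower floor, -0.083 with the pseudocount, -0.035 without the filter and -0.17 to -0.019 with a sample left out. The bZIP median was -0.12 on a common median, 0.55 on the controls and -0.11 to 0.28 with a sample left out. The target gene median was -0.19, 0.56 and -0.039 to 0.15 in the same settings, and that of the regulators -0.27 on a common median, 0.44 on the controls, -0.15 after quantile normalization and -0.18 to 0.19 with a sample left out. Deviations of same-numbered samples correlated at -0.050 over the tested probe sets. A single correlation this small cannot tell whether same-numbered samples were paired. With the replicate block 0 probe sets were called and Fosb kept 0.56 (limma adjusted p = 0.482). The higher floor left out Fos 161716_at and Atf3 104156_r_at.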
